A study of Mus musculus with 4 samples.

Results

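DEAD-box and DEAH-box proteins are RNA helicases, enzymes that use ATP to bind, unwind or remodel RNA and RNA-protein complexes. They take their name from a 4-residue stretch of helicase motif II, which helps to hold and split ATP. Members act in most steps of RNA metabolism: assembly of ribosomes in the nucleolus, pre-mRNA splicing, mRNA export, translation, storage and decay of mRNA, and, for a few, recognition of viral RNA. The set described here comprised the protein-coding genes whose symbol is Ddx or Dhx followed by a number and optional lower-case letters. It held 53 of the 47069 genes in the files, and 48 of the 53 averaged 1 FPKM or more across the 4 libraries. The family was chosen because Ddx3x stood out in oxygen-glucose deprivation (OGD), so the OGD values of Ddx3x are given as a description and support nothing.

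The cells were HT22, an immortalised mouse hippocampal neuronal line, labelled as strain C57BL/6. Each of 4 groups held 1 library of total RNA. KD-OGD received an adenovirus whose label says knockdown of AK046375, a long noncoding RNA, and was then kept for 6 h without glucose, with nitrogen in place of oxygen. Control-OGD received a control adenovirus and the same deprivation. KD-normal and control-normal received the knockdown-labelled and the control adenovirus and stayed in normal culture. All 4 groups were thus infected, 2 h after seeding. The series title and design text speak instead of overexpression and a lentivirus, and AK046375 itself was not analysed here, so KD names a label and not a checked direction. With 1 library per group there is no replicate spread, and no test between conditions was made.

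Library totals lay between 23327743 (KD-OGD) and 27539845 (control-OGD) expected counts. The count-weighted mean effective transcript length was 1952 nt in KD-OGD, 1613 nt in control-OGD, 1340 nt in KD-normal and 1637 nt in control-normal. Whether transcript length was sampled differently or the mix of expressed genes differed was not tested, here or for the length trends below. Of the neuronal markers, Tubb3 and Eno2 averaged 1 FPKM or more, while Nefl, Nefm and Rbfox3 had 0 counts in all 4 libraries. Map2 had 1.29 FPKM in KD-OGD and 0.39 in control-OGD, against 0.25 in KD-normal and 1.08 in control-normal. Syp had at most 0.41 FPKM, in KD-normal. The summed level of 7 neuronal markers was 21.9 FPKM in KD-OGD and 21.02 in control-OGD, against 62.1 in KD-normal and 89.3 in control-normal. Nearly all of these sums came from Tubb3 and Eno2. Summed markers of glia, immune cells and endothelium stayed between 0.92 and 1.5 FPKM, with Aqp4 and Ptprc at 0 counts. The part of these differences in the results below was not tested. In bulk RNA, fewer cells of a kind and less RNA per cell cannot be told apart.

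The stretches of coding sequence around motif II are shown for the members on which the results turn, since motif II gives the family its name. They come from GENCODE vM21 transcripts (GRCm38), run 5′ to 3′ over 30 bases, and carry the 4 codons of motif II in capitals.
Ddx3x: ctggtgttaGATGAAGCTGACcggatgtta
Ddx3y: ttagtattgGATGAAGCTGATaggatgctg
Ddx5: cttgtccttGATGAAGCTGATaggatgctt
Ddx17: cttgtgttgGATGAGGCTGACcggatgctt
Ddx18: ctggttattGATGAGGCTGACcgtatcttg
Ddx21: gttgtcctgGATGAAGTCGACcagatgttg
Ddx39b: tttattttgGACGAGTGTGACaagatgctt
Dhx9: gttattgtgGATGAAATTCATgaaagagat
Dhx15: ataattcttGATGAGGCCCATgaaagaaca
Dhx40: attattttgGATGAAGCCCATgaaagaact
Ddx58: atgatatttGATGAGTGTCATaacactagc
Dhx58: attgtggtgGACGAGTGTCACcacacccac

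A motif II stretch was found in 52 of the 53 members, and none in Dhx32. The codons spelled Asp-Glu-Ala-Asp in 28 members and Asp-Glu-Ala-His in 9. In the other 15 a residue differed: the third codon was for valine in Ddx21 and Ddx50 and for cysteine in Ddx39, Ddx39b, Ddx58 and Dhx58, for example. Ddx3x and Ddx3y are X- and Y-linked copies of the same helicase, and over their transcripts 2 windows of 50 bases were identical among 5417 of Ddx3x and 5202 of Ddx3y. The FPKM ratio of Ddx3x to Ddx3y was 61.9 in KD-OGD, 19.4 in control-OGD, 43.8 in KD-normal and 20.3 in control-normal. These ratios rest on few counts of Ddx3y: 187 in KD-OGD, 83 in control-OGD, 12 in KD-normal and 49 in control-normal. The effective length of Ddx3x also differed between libraries, as given below. No source used here gives the authors' handling of shared reads. Ddx19a and Ddx19b, neighbours on chromosome 8, shared 831 windows, which is 28.1% of those of Ddx19a and 12.4% of those of Ddx19b, so the split of reads between them is uncertain. No window was shared by Ddx5 and Ddx17, by Ddx21 and Ddx50 or by Ddx39 and Ddx39b.

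The 53 genes took 0.570% of all expected counts in KD-OGD and 0.416% in control-OGD, against 0.186% in KD-normal and 0.273% in control-normal. Ddx5, a splicing and transcription cofactor also called p68, was the highest member in KD-OGD and in control-normal, and Ddx39b, the splicing and mRNA export helicase also called UAP56, in control-OGD and KD-normal. Ddx5 alone made up 23.1% of the summed FPKM of the family in KD-OGD, 14.1% in control-OGD, 6.18% in KD-normal and 13.0% in control-normal. Levels are given as FPKM, which is per length and so allows genes to be compared. Of the 5 members under 1 FPKM on average, Ddx3y lay just below at 2.38 FPKM in KD-OGD and 0.890 in control-OGD, against 0.130 in KD-normal and 0.540 in control-normal. The germ-cell helicases Ddx4, Ddx25 and Ddx43 and the interferon-induced Ddx60 had at most 1 count in any library. For Ddx43, with 0 counts in all 4 libraries, 3 counts would correspond to between 0.0543 and 0.0642 FPKM.

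**Figure D1:**
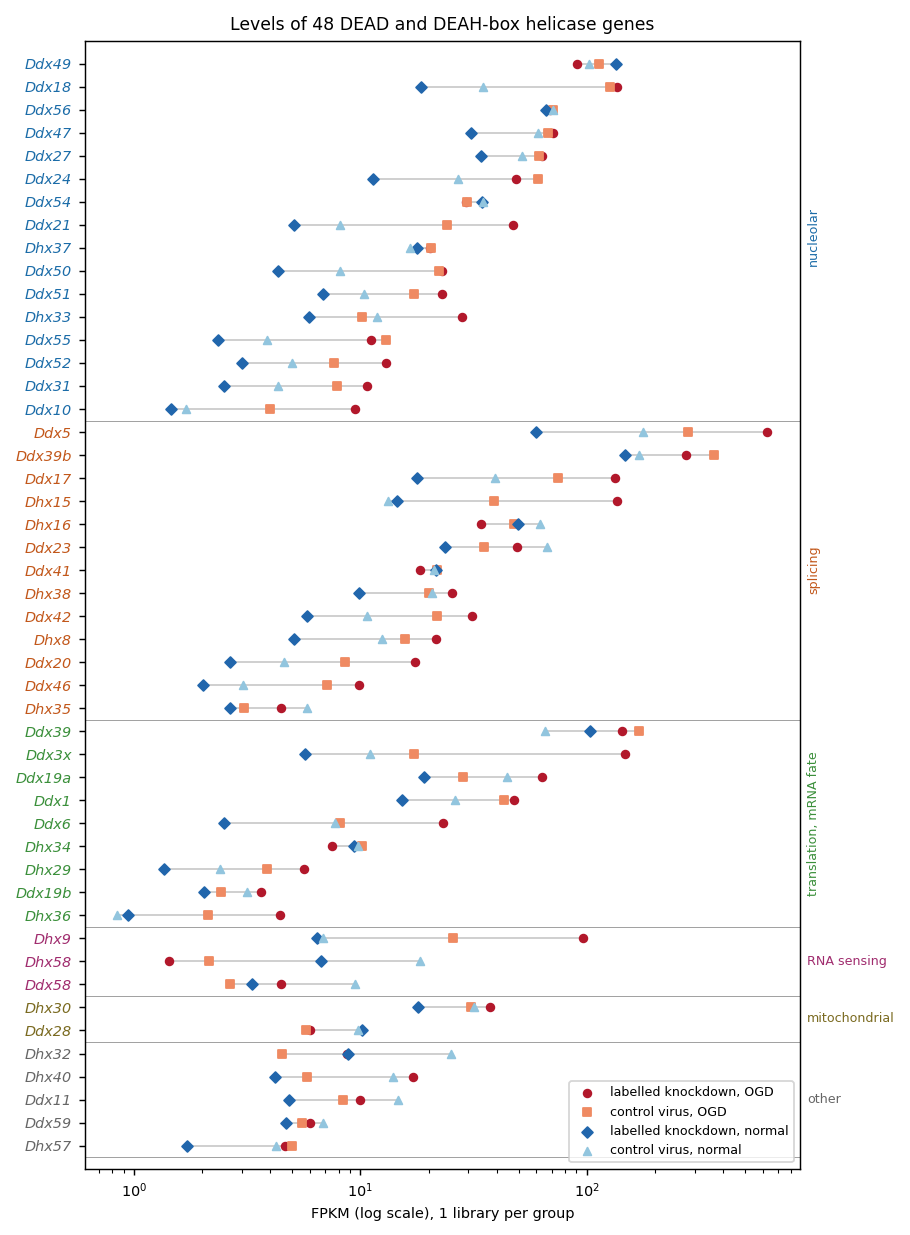
Level of each of the 48 helicase genes that averaged 1 FPKM or more, in FPKM on a log scale, with a point for each of the 4 libraries and genes grouped by role. Ddx5, Ddx39b and Ddx39 have the highest means. KD-normal holds the lowest point for 35 genes, a count that was not made over all genes. The KD-OGD point of Ddx3x (147 FPKM) lies far to the right of its other 3 (5.70 to 17.3 FPKM).

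OGD was first set against normal culture under the control virus, which asks what 6 h of deprivation does to these transcripts without the knockdown-labelled virus. A ratio above 0 was found for 14 of 16 nucleolar and 9 of 13 splicing helicases in control-OGD, beside 4934 of 12256 genes, whereas the cytosolic RNA sensors Ddx58 and Dhx58 were lower. On the scale of log2(FPKM + 1), 10 of 48 members were at least 2-fold higher, beside 11.6% of all 12256 genes at or above the same mean level. At least 2-fold lower were 4 of 48, beside 24.3% of all genes. In per cent, 20.8% of the members were higher and 8.33% lower. The members' median log2 ratio was 0.27, and that of all genes was -0.25. At 1.5-fold, 20 members were higher, beside 20.9% of all genes, and 9 lower, beside 37.5%. Rescaling to equal sums gave 8 higher and 5 lower, beside 10.2% and 27.0% of all genes. TMM gave 18 higher and 3 lower, beside 17.3% and 18.2%, and median-of-ratios scaling the same counts, beside 17.5% and 18.1%. Upper-quartile scaling gave 22 higher and 2 lower, beside 25.3% and 12.0%. With a trend on length taken out, 18 were higher and 3 lower, beside 16.8% and 17.1%. The members' median stood above the all-gene median by 0.51 to 0.63 under all of the scalings and after removal of the trend.

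Among nucleolar helicases, 5 of 16 were at least 2-fold higher in control-OGD and 0 were lower, beside 11.6% and 24.3% of all genes. Ddx18, which acts in assembly of the large ribosomal subunit (chromosome 1, 121553835 to 121567989, GRCm38), had 136 FPKM in KD-OGD and 127 in control-OGD, against 18.6 in KD-normal and 34.8 in control-normal. Both OGD libraries lay above both normal libraries. In control-OGD over control-normal it was 3.64-fold higher [3.40 to 3.89], where brackets give the exact 95% interval for counting error only. Ddx21, an rRNA-processing helicase that also binds 7SK RNA, had 47.1 FPKM in KD-OGD and 24.2 in control-OGD, against 5.07 in KD-normal and 8.12 in control-normal, and was 2.98-fold higher [2.77 to 3.21]. Its paralog Ddx50, the adjacent gene on chromosome 10, had 22.9 FPKM in KD-OGD and 22.3 in control-OGD, against 4.32 in KD-normal and 8.13 in control-normal. Ddx50 was 2.75-fold higher [2.48 to 3.05], and the ratio of Ddx21 to Ddx50 in FPKM was 2.06 in KD-OGD, 1.08 in control-OGD, 1.17 in KD-normal and 1.00 in control-normal. The pair thus had nearly equal levels in 3 libraries and unequal ones in KD-OGD. Ddx55, of large-subunit assembly, had 11.2 FPKM in KD-OGD and 13.0 in control-OGD, against 2.34 in KD-normal and 3.86 in control-normal, and was 3.36-fold higher [2.88 to 3.94]. Ddx24 had 48.6 FPKM in KD-OGD and 60.9 in control-OGD, against 11.3 in KD-normal and 26.9 in control-normal, and was 2.26-fold higher [2.14 to 2.39]. In all 5 genes both OGD values lay above both normal values.

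Nucleolar members were not uniform. Ddx49, the nucleolar helicase with the highest mean level, had 91.0 FPKM in KD-OGD and 114 in control-OGD, against 135 in KD-normal and 103 in control-normal, with the highest value in KD-normal. Ddx56 had 68.9 FPKM in KD-OGD and 71.3 in control-OGD, against 66.4 in KD-normal and 70.7 in control-normal, and the 4 libraries differed little. Ddx54 had 29.3 FPKM in KD-OGD and 29.6 in control-OGD, against 34.3 in KD-normal and 35.0 in control-normal, with both OGD values just below both normal values. The log2 ratios of these 3 genes in control-OGD over control-normal were 0.14, 0.01 and -0.23, and those of Ddx56 and Ddx54 took both signs over the settings. A list of proteins of snoRNA particles, which guide rRNA modification, gave 6 of 10 at least 2-fold higher and 0 lower (median 1.34). The shares of all genes were 11.6% higher and 24.3% lower. Values in the list ran from Nop56 at 2.85 to Dkc1 at -0.34. The list, used in every comparison here, also holds Ncl at 2.56 and Npm1 at 1.44. Both are nucleolar proteins that are not core parts of these particles.

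Splicing helicases gave 3 of 13 at least 2-fold higher and 0 lower in control-OGD, beside 11.6% and 24.3% of all genes. Dhx15, which takes apart spent spliceosomes (chromosome 5, 52150203 to 52190514), had 136 FPKM in KD-OGD and 38.9 in control-OGD, against 14.5 in KD-normal and 13.2 in control-normal. The 2 normal libraries were close to each other, and both OGD libraries lay above them. Dhx15 was 2.95-fold higher [2.72 to 3.20] in control-OGD. Ddx39b had 276 FPKM in KD-OGD and 366 in control-OGD, against 147 in KD-normal and 170.4 in control-normal, so it was 2.15-fold higher [2.09 to 2.21] in control-OGD. Ddx46, which acts at the branch point with the U2 particle, was 2.35-fold higher [2.10 to 2.63]. Its value and that of Ddx39b were within 2-fold under some of the other settings. Ddx23, a helicase of the U5 particle, had 49.1 FPKM in KD-OGD and 35.3 in control-OGD, against 23.6 in KD-normal and 66.5 in control-normal, and control-normal held the highest value. It was 1.88-fold lower [1.80 to 1.98] in control-OGD, and Dhx35 was 1.88-fold lower [1.58 to 2.24], both within 2-fold on the scale of FPKM + 1. Among 12 proteins of the U5 particle and the tri-snRNP, 2 were at least 2-fold higher and 0 lower (median 0.14), from Prpf3 at 1.49 to Prpf6 at -0.59.

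Of 9 helicases of translation and mRNA fate, 1 was at least 2-fold higher and 0 were lower, beside 11.6% and 24.3% of all genes. That gene was Ddx39, an mRNA export helicase and close relative of Ddx39b, with 144 FPKM in KD-OGD and 171 in control-OGD, against 103 in KD-normal and 65.7 in control-normal. It was 2.60-fold higher [2.49 to 2.71], and the ratio of Ddx39 to Ddx39b in FPKM was 0.52 in KD-OGD, 0.47 in control-OGD, 0.70 in KD-normal and 0.39 in control-normal. Ddx19a, which releases export factors at the nuclear pore, had 63.4 FPKM in KD-OGD and 28.3 in control-OGD, against 19.1 in KD-normal and 44.3 in control-normal. It was 1.57-fold lower [1.46 to 1.68] in control-OGD, and its log2 ratio was 0.0056 with upper-quartile scaling, so the direction was lost there. Ddx19b had 3.64 FPKM in KD-OGD and 2.41 in control-OGD, against 2.04 in KD-normal and 3.14 in control-normal, and the 2 genes share many windows as given above. Genes of translation initiation gave 5 of 16 higher and 1 lower (median 0.59), from Eif1 at 1.61 to Eif4ebp2 at -1.92. Eif4ebp1 and Eif4ebp2 in this list encode repressors that bind the initiation factor eIF4E, and the 1 gene lower was Eif4ebp2. Factors of mRNA decapping and processing bodies gave 2 of 11 higher and 1 lower (median -0.13), from Cnot1 at 1.203 to Lsm14b at -1.04. Cofactors of helicases and of mRNA export gave 5 of 17 higher and 1 lower (median 0.67), from Gpatch3 at 2.83 to Gpkow at -1.74.

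Of the 4 genes listed by hand as sensors of foreign RNA, Ddx60 had at most 1 count in any library. Dhx58 and Ddx58 were lower in control-OGD, and Dhx9 was higher. Dhx58, which encodes LGP2, a regulator of RIG-I-like receptors (chromosome 11, 100694884 to 100704271), had 1.43 FPKM in KD-OGD and 2.14 in control-OGD, against 6.68 in KD-normal and 18.4 in control-normal. Both OGD values lay below both normal values. The counts behind them were 45 in KD-OGD, 65 in control-OGD, 199 in KD-normal and 558 in control-normal. In control-OGD it was 8.57-fold lower [6.62 to 11.3]. The overlapping antisense gene Dhx58os held between 0 and 19 counts per library, and no source used here says whether counting used the strand. Ddx58, which encodes the RIG-I receptor (chromosome 4, 40203773 to 40239828), had 4.47 FPKM in KD-OGD and 2.64 in control-OGD, against 3.33 in KD-normal and 9.46 in control-normal. It was 3.59-fold lower [3.02 to 4.28] in control-OGD, and the control-normal value stood above the other 3. Dhx9, a nuclear helicase that resolves RNA-DNA hybrids and has also been described as a sensor, had 96.5 FPKM in KD-OGD and 25.5 in control-OGD, against 6.45 in KD-normal and 6.86 in control-normal. It was 3.72-fold higher [3.40 to 4.08] in control-OGD. Genes of the sensor pathway gave 0 of 12 higher and 7 lower (median -1.13), from Riok3 at 0.64 to Irf7 at -2.97. The shares of all genes were 11.6% higher and 24.3% lower. Ifih1, the gene of the related receptor MDA5, had 0.320 FPKM in KD-OGD and 0.140 in control-OGD, against 0.560 in KD-normal and 1.76 in control-normal and was under 1 FPKM on average.

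Mitochondrial helicases were within 2-fold. Dhx30, of mitochondrial ribosome assembly, had 37.5 FPKM in KD-OGD and 30.9 in control-OGD, against 17.9 in KD-normal and 31.9 in control-normal. Ddx28, of the same process, had 6.01 FPKM in KD-OGD and 5.74 in control-OGD, against 10.2 in KD-normal and 9.75 in control-normal, and was 1.70-fold lower [1.47 to 1.95] in control-OGD. Lower as well were Dhx32, a member without a motif II match whose role is not well defined, and Dhx40. Dhx32 had 8.72 FPKM in KD-OGD and 4.52 in control-OGD, against 8.82 in KD-normal and 25.1 in control-normal, and its control-normal value stood above the rest. It was 5.54-fold lower [4.84 to 6.37] in control-OGD and stayed past 2-fold under the other settings, which Dhx40 and Ddx58 did not. Dhx40 had 17.0 FPKM in KD-OGD and 5.79 in control-OGD, against 4.18 in KD-normal and 13.9 in control-normal, and was 2.40-fold lower [2.13 to 2.71]. Related helicases that carry other names gave 0 of 8 past 2-fold in either direction (median 0.41), from Dicer1 at 0.97 to Skiv2l at -0.83. The shares of all genes were 11.6% higher and 24.3% lower. Of the related helicases, Upf1 and Aqr belong to a different helicase superfamily from the members. The abundant translation helicase Eif4a1 was in that list, with 1178 FPKM in KD-OGD and 1065 in control-OGD, against 656 in KD-normal and 695 in control-normal.

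Under the knockdown-labelled virus the same comparison of OGD with normal culture asks how the response looks when both libraries carry that virus. A larger count of members was higher: 30 of 48 were at least 2-fold higher in KD-OGD, beside 33.4% of all genes, and 1 was at least 2-fold lower, beside 20.9% of all genes. In per cent that was 62.5% and 2.08% of the members. The median log2 ratio was 1.48 for the members and 0.32 for all genes. At 1.5-fold the counts were 34 higher and 2 lower, beside 43.6% and 29.6% of all genes. With the length trend taken out, 20 members were higher and 4 lower, beside 21.5% and 21.4% of all genes, and the members' median exceeded that of all genes by 0.62. The comparison shares no library with the one under the control virus.

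**Figure D2:**
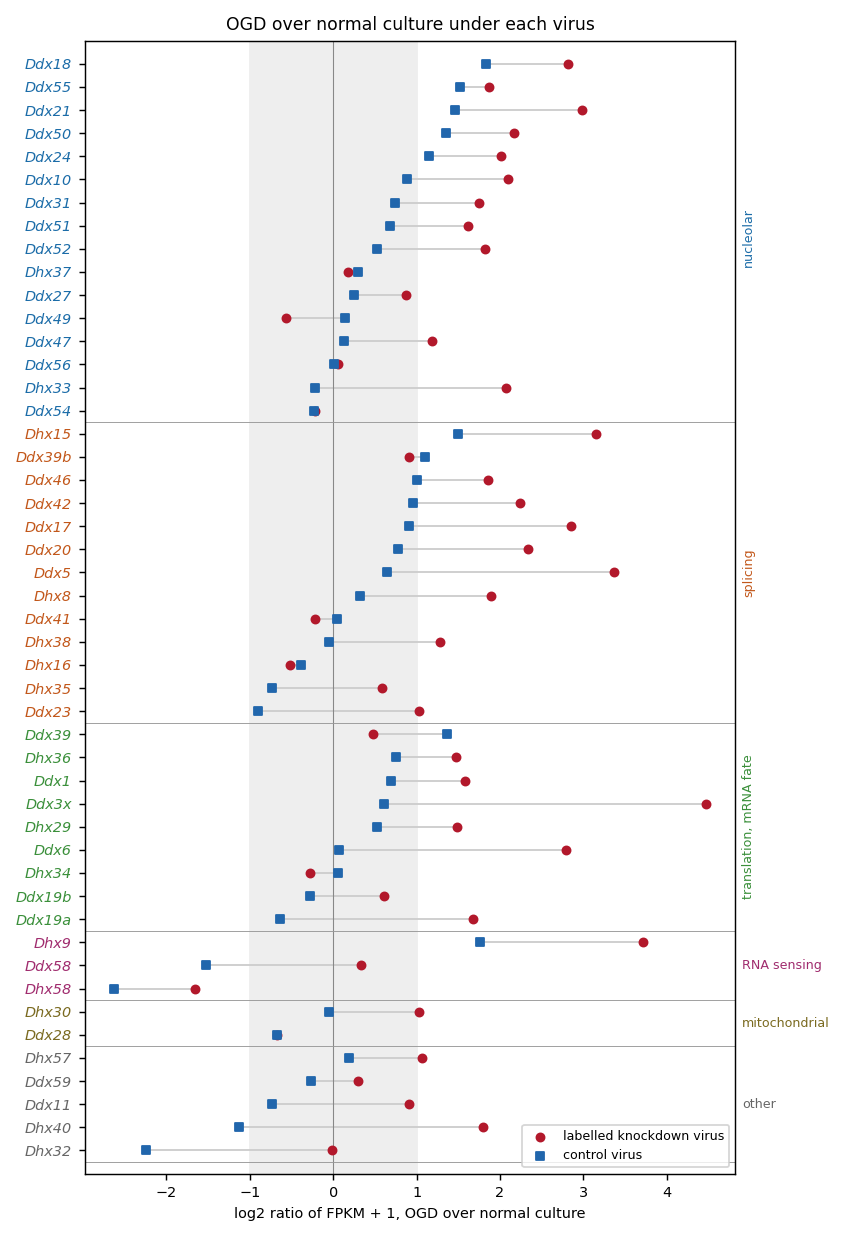
Log2 ratio of FPKM + 1 in OGD over normal culture for 48 helicase genes, with the knockdown-labelled virus (circles) and the control virus (squares), grouped by role and ordered within a role by the control-virus ratio. Grey marks ratios within 2-fold. The circle lies to the right of the square for 41 of 48 helicase genes, as it would for 8249 of all 12256 genes, with Ddx3x at 4.47 and 0.61, and Dhx58 is to the left of 0 under both viruses.

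By role, 11 of 16 nucleolar, 9 of 13 splicing and 6 of 9 translation and mRNA fate helicases were at least 2-fold higher in KD-OGD than in KD-normal, and 0 in these roles were lower. The shares of all genes were 33.4% higher and 20.9% lower. Ddx5 had 629.5 FPKM in KD-OGD and 279.5 in control-OGD, against 59.99 in KD-normal and 178 in control-normal, so it was 10.5-fold higher [10.1 to 11.0]. Under the control virus it was 1.57-fold higher [1.52 to 1.62]. Its paralog Ddx17, or p72, had 134 FPKM in KD-OGD and 74.3 in control-OGD, against 17.8 in KD-normal and 39.2 in control-normal, and was 7.55-fold higher [7.19 to 7.92]. The FPKM ratio of Ddx5 to Ddx17 was 4.70 in KD-OGD, 3.76 in control-OGD, 3.38 in KD-normal and 4.55 in control-normal, so the pair kept a ratio between 3.38 and 4.70 while their levels differed by more.

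The remaining nucleolar members had ratios of KD-OGD to KD-normal above 1 to different extents. Ddx10 had 9.49 FPKM in KD-OGD and 3.97 in control-OGD, against 1.46 in KD-normal and 1.69 in control-normal. Ddx31 had 10.7 FPKM in KD-OGD and 7.91 in control-OGD, against 2.49 in KD-normal and 4.33 in control-normal. Ddx51 had 22.9 FPKM in KD-OGD and 17.3 in control-OGD, against 6.80 in KD-normal and 10.4 in control-normal. Their values were above 2-fold in KD-OGD over KD-normal and within 2-fold in control-OGD over control-normal on the log2(FPKM + 1) scale. Ddx52 had 13.0 FPKM in KD-OGD and 7.67 in control-OGD, against 2.98 in KD-normal and 5 in control-normal, and Ddx27, named after its values were seen like the others here, had 63.6 FPKM in KD-OGD and 61.5 in control-OGD, against 34.2 in KD-normal and 51.7 in control-normal. Ddx27 was within 2-fold in every comparison. Dhx37, which releases the U3 snoRNA from the small-subunit precursor, had 20.2 FPKM in KD-OGD and 20.6 in control-OGD, against 17.8 in KD-normal and 16.6 in control-normal, and its 4 libraries lay close together, with both signs over the settings.

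The remaining splicing helicases differed among themselves. Ddx42, a U2-associated helicase, had 31.2 FPKM in KD-OGD and 21.7 in control-OGD, against 5.83 in KD-normal and 10.7 in control-normal. Ddx20, or Gemin3, of the SMN complex that assembles snRNPs, had 17.4 FPKM in KD-OGD and 8.54 in control-OGD, against 2.65 in KD-normal and 4.57 in control-normal. Dhx8, which releases the spliced mRNA, had 21.5 FPKM in KD-OGD and 15.8 in control-OGD, against 5.06 in KD-normal and 12.4 in control-normal. In these 3 genes both OGD values lay above both normal values. Dhx38, which acts in the second step of splicing, had 25.5 FPKM in KD-OGD and 20.03 in control-OGD, against 9.89 in KD-normal and 20.7 in control-normal, so its low value was that of KD-normal. Ddx41 had 18.4 FPKM in KD-OGD and 21.8 in control-OGD, against 21.6 in KD-normal and 21.1 in control-normal, and Dhx16 had 34.3 FPKM in KD-OGD and 47.5 in control-OGD, against 49.7 in KD-normal and 62.2 in control-normal, with KD-OGD lowest in both.

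Among helicases of mRNA fate, Ddx1, a subunit of the tRNA ligase complex, had 47.7 FPKM in KD-OGD and 43.0 in control-OGD, against 15.3 in KD-normal and 26.2 in control-normal. Dhx29, which helps the small ribosomal subunit scan structured leaders, had 5.63 FPKM in KD-OGD and 3.87 in control-OGD, against 1.36 in KD-normal and 2.39 in control-normal. Dhx36, which unwinds G-quadruplexes, had 4.40 FPKM in KD-OGD and 2.11 in control-OGD, against 0.940 in KD-normal and 0.840 in control-normal. Both OGD values again lay above both normal values in these 3 genes. Dhx34 had 7.52 FPKM in KD-OGD and 10.2 in control-OGD, against 9.34 in KD-normal and 9.71 in control-normal, with KD-OGD lowest. Of the members placed in no role, Dhx57 had 4.66 FPKM in KD-OGD and 4.97 in control-OGD, against 1.71 in KD-normal and 4.23 in control-normal, and Ddx59 had 6.01 FPKM in KD-OGD and 5.51 in control-OGD, against 4.69 in KD-normal and 6.80 in control-normal. In both genes KD-normal was lowest.

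Dhx9 was 15.0-fold higher [13.7 to 16.4] and Dhx15 was 9.40-fold higher [8.72 to 10.1] in KD-OGD over KD-normal. Ddx21 was 9.28-fold higher [8.49 to 10.2], and Ddx18 was 7.34-fold higher [6.70 to 8.04]. Ddx6, which represses translation and acts in decapping within processing bodies, had 23.1 FPKM in KD-OGD and 8.13 in control-OGD, against 2.49 in KD-normal and 7.68 in control-normal. It was 9.31-fold higher [8.32 to 10.4] under the knockdown-labelled virus and 1.06-fold higher [0.978 to 1.15] under the control virus, where the sign turned after rescaling to equal sums. Values at the low end were those of Dhx58, 4.66-fold lower [3.36 to 6.60], Ddx28, 1.69-fold lower [1.46 to 1.97], Ddx49, 1.49-fold lower [1.41 to 1.56], and Dhx16, a helicase that activates the spliceosome, 1.45-fold lower [1.35 to 1.56]. Ddx58 was 1.34-fold higher [1.08 to 1.66], a direction that turned with the length trend taken out (log2 ratio -0.27). The lists of partner genes in KD-OGD over KD-normal stand beside 33.4% of all genes at least 2-fold higher and 20.9% lower. Translation initiation gave 12 of 16 higher and 0 lower (median 1.48), snoRNA particles 5 of 10 higher and 2 lower (median 1.14), and the U5 and tri-snRNP list 6 of 12 higher and 0 lower (median 0.86). Helicase cofactors gave 10 of 17 higher and 0 lower (median 1.61), decapping factors 6 of 11 higher and 1 lower (median 1.09), other helicases 4 of 8 higher and 0 lower (median 1.00), and the sensor pathway 4 of 12 higher and 5 lower (median -0.34).

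Across settings, 19 members stayed at least 2-fold higher and 1, Dhx58, at least 2-fold lower in KD-OGD over KD-normal under every other pseudocount, filter, scaling and length correction that applied to them. Under the control virus 8 stayed higher, namely Ddx18, Ddx21, Ddx24, Ddx39, Ddx50, Ddx55, Dhx9 and Dhx15, and 2 stayed lower, Dhx32 and Dhx58. How many of all genes stayed past 2-fold over the settings was not counted, here or for the comparisons below. These counts therefore do not set the family apart from other genes.

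The knockdown-labelled virus was set against the control virus under OGD to ask which helicase transcripts differ with the virus in deprived cells. This is the contrast in which the family was noticed. In it 9 of 48 members were at least 2-fold higher in KD-OGD, beside 16.3% of all genes, and 0 were lower, beside 2.28%. At 1.5-fold the counts were 16 higher, beside 32.9% of all genes, and 0 lower, beside 10.7%. The members' median log2 ratio was 0.39, and that of all genes was 0.26. By role, 2 of 16 nucleolar, 2 of 13 splicing, 3 of 9 translation and mRNA fate, 1 of 3 sensing and 1 of 5 other members were at least 2-fold higher. The count was 14 after rescaling to equal sums, beside 25.8% of all genes, and 5 with median-of-ratios scaling, beside 9.73%. With the length trend taken out 3 members were higher, beside 7.14%, and 1 was lower, beside 1.84%.

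Ddx3x, an X-linked helicase that acts in translation of mRNAs with structured leaders, in stress granules and in innate signalling, led the members. It lies on the plus strand of chromosome X, 13280970 to 13294052. It had 147 FPKM in KD-OGD and 17.3 in control-OGD, against 5.70 in KD-normal and 11.0 in control-normal. The KD-OGD value stood above the other 3 libraries. In KD-OGD it was 8.53-fold higher [8.09 to 9.001], at rank 22 by log2 ratio among 12256 genes, and the next member was Dhx9 at 1.88 against 3.02 for Ddx3x on the log2 scale. In OGD over normal culture it was 25.8-fold higher [23.2 to 28.8] with the knockdown-labelled virus and 1.57-fold higher [1.43 to 1.73] with the control virus.

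The FPKM of Ddx3x divides its counts by an effective length that differed between libraries. Its expected counts were 7268 in KD-OGD, 1707 in control-OGD, 347 in KD-normal and 567 in control-normal. Scaled to library totals as CPM, they gave 312 CPM in KD-OGD, 62.0 in control-OGD, 14.9 in KD-normal and 21.8 in control-normal. The ratio of KD-OGD to control-OGD was 5.03 in CPM, against 8.53 in FPKM. For OGD over normal culture with the knockdown-labelled virus it was 20.96 in CPM, against 25.8 in FPKM. With the control virus it was 2.84 in CPM, against 1.57 in FPKM, so the 2 viruses differed less per count. The effective length assigned to the gene was 2115 nt in KD-OGD and 3591 nt in control-OGD, against 2607 nt in KD-normal and 1987 nt in control-normal. The control-OGD value thus stood apart, 1.70-fold longer than that of KD-OGD and 1.81-fold longer than that of control-normal. The files list 5 transcripts for Ddx3x. GENCODE vM21 annotates 1 of them as protein-coding, with 4692 nt, and the other 4 as retained introns or processed transcripts of 587 to 1003 nt. How the deposited effective length combines them is not known here. Per count the directions were the same. The log2 ratio of Ddx3x in KD-OGD over control-OGD lay between 2.06 and 3.32 over all settings tried. In control-OGD over control-normal it lay between 0.51 and 1.69.

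**Figure D3:**
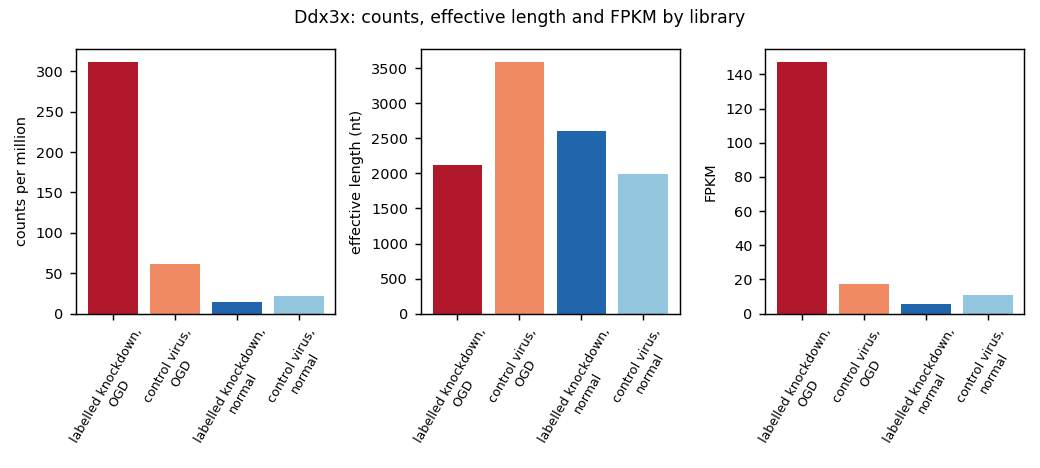
Ddx3x in each of the 4 libraries as CPM of the library total, effective length in nt and FPKM, with 1 bar per library. KD-OGD is highest in CPM (312) and FPKM (147), and control-OGD has the longest effective length (3591 nt).

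The 200 bases before the RefSeq start of Ddx3x (GRCm38.p6, plus strand, chrX:13280822-13281021) are printed because no other member had so high a ratio. The GENCODE start lies within this window. Capitals mark 2 searched motifs, on either strand: ACGTG, the core of the hypoxia response element, and TGACNNNGC, the core of the antioxidant response element.
Ddx3x promoter: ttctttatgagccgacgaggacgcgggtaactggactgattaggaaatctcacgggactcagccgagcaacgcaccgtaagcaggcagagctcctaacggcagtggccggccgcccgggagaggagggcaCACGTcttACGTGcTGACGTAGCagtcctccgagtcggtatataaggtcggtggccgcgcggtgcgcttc

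ACGTG was present in the 200 bases before the start for 13 of 58 RefSeq promoters of 47 matched members, and for 14.0% of all 32851 promoters. TGACNNNGC was present in 6 of the 58 and in 8.60% of all. GAANNTTC, from the heat shock element, was present in 3 of the 58 and in 5.36% of all. A match describes letters only.

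Dhx9 and Dhx15 followed Ddx3x in KD-OGD over control-OGD, 3.78-fold higher [3.62 to 3.95] and 3.49-fold higher [3.33 to 3.66]. In CPM their ratios were 2.96 and 3.74. Ddx3x, Dhx9 and Dhx15 were the 3 members that stayed past 2-fold in this contrast under all other settings. Dhx40 was 2.94-fold higher [2.61 to 3.32], Ddx6 was 2.85-fold higher [2.67 to 3.04], and Dhx33, a nucleolar helicase with 28.1 FPKM in KD-OGD and 10.1 in control-OGD, against 5.94 in KD-normal and 11.9 in control-normal, was 2.78-fold higher [2.56 to 3.02]. Ddx5 was 2.25-fold higher [2.20 to 2.30] in FPKM and 1.78-fold higher in CPM. Ddx19a was 2.24-fold higher [2.09 to 2.40] and Ddx10 was 2.39-fold higher [2.10 to 2.73]. At the other end were Dhx16, 1.39-fold lower [1.29 to 1.49] in FPKM but with a ratio of 1.002 in CPM, and Ddx39b, 1.33-fold lower [1.29 to 1.36]. Dhx34, of nonsense-mediated decay, was 1.35-fold lower [1.22 to 1.51], and Dhx58 was 1.496-fold lower [1.007 to 2.24].

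The length estimate moved for other members too. In KD-OGD, 9 of 48 had an effective length at least 1.2-fold shorter than in control-OGD, beside 13.1% of all genes, and 2 were longer by as much, beside 3.20%. The 9 were Ddx3x, Ddx5, Ddx19a, Ddx23, Ddx31, Ddx47, Dhx9, Dhx33 and Dhx35, which were named after their values were seen. In OGD over normal culture, the effective length was as much longer in 7 members and shorter in 1 under the control virus, beside 14.3% and 3.07% of all genes. Under the knockdown-labelled virus it was longer in 0 and shorter in 3, beside 4.38% and 6.14%. In KD-normal over control-normal it was longer in 3 and shorter in 1, beside 6.01% and 3.21%. Ddx47, of nucleolar rRNA processing, had 70.9 FPKM in KD-OGD and 67.1 FPKM in control-OGD but 83.7 and 103 CPM in KD-OGD and control-OGD.

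The partner lists in KD-OGD over control-OGD stand beside 16.3% of all genes at least 2-fold higher and 2.28% lower. In this comparison 3 of 16 translation initiation genes were higher and 0 lower (median 0.50), led by Eif4g2 at 2.47, with Eif4ebp1 lowest at -0.70. Higher were also 2 of 10 genes of the snoRNA particle list (median -0.33, Dkc1 at 1.52, Nhp2 at -0.89), with 0 lower. Decapping genes gave 2 of 11 higher and 0 lower (median 0.45, Lsm14a at 1.69, Dcp2 at -0.25). The U5 and tri-snRNP list gave 1 of 12 higher and 0 lower (median 0.00; Prpf8 at 1.08, Txnl4a at -0.48). Cofactors gave 3 of 17 higher and 1 lower (median 0.25; Gpkow at 1.60, Rbm8a at -1.002), other helicases 2 of 8 higher and 0 lower (median 0.20; Eif4a2 at 1.10, Eif4a3 at -0.47) and the sensor pathway 1 of 12 higher and 0 lower (median 0.34; Ifit2 at 1.42, Irf3 at -0.68).

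In normal culture 41 of 48 helicases had a lower level with the knockdown-labelled virus than with the control virus, beside 7953 of 12256 genes. At least 2-fold lower in KD-normal were 12 of 48 members, beside 13.9% of all genes, and 0 were at least 2-fold higher, beside 4.67%. That was 25% of the members. At 1.5-fold, 27 members were lower, beside 32.2% of all genes, and 1 was higher, beside 13%. The median log2 ratio was -0.61 for the members and -0.27 for all genes. The count was 23 after rescaling to equal library sums, beside 24.8% of all genes, and 4 with upper-quartile scaling, beside 4.78%, with 1 member then higher, beside 12.4%. With the length trend taken out it was 3 of 48, or 6.25%, beside 6.12% of all genes.

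The 12 genes were Ddx5, Ddx6, Ddx11, Ddx17, Ddx19a, Ddx23, Ddx24, Ddx58, Dhx8, Dhx32, Dhx40 and Dhx58, and by role 1 was nucleolar, 4 were splicing, 2 translation and mRNA fate, 2 sensing and 3 other members. Dhx40 was 3.32-fold lower [2.88 to 3.84], and was the 1 member that stayed at least 2-fold lower under all other settings. Ddx11, a DNA helicase of the same superfamily that acts in sister chromatid cohesion, had 9.94 FPKM in KD-OGD and 8.38 in control-OGD, against 4.83 in KD-normal and 14.6 in control-normal. It was 3.02-fold lower [2.72 to 3.37]. Ddx5 was 2.97-fold lower [2.83 to 3.12], Ddx23 was 2.81-fold lower [2.65 to 2.99], and Ddx6 was 3.09-fold lower [2.73 to 3.49]. Among sensors, Ddx58 was 2.84-fold lower [2.37 to 3.41] and Dhx58 was 2.75-fold lower [2.33 to 3.25], whereas Dhx9 was at 6.45 FPKM in KD-normal and 6.86 FPKM in control-normal. Ddx3x itself was 1.92-fold lower [1.68 to 2.21]. At the high end were Ddx39, 1.57-fold higher [1.495 to 1.65], Ddx49, 1.31-fold higher [1.25 to 1.38], Dhx15, 1.10-fold higher [0.991 to 1.21], and Dhx37, 1.07-fold higher [0.971 to 1.19]. The last 2 intervals include 1, so no difference was detectable at this depth, and their signs turned under other settings.

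The partner lists in KD-normal over control-normal stand beside 4.67% of all genes at least 2-fold higher and 13.9% lower. Of these lists, the U5 and tri-snRNP genes gave 1 of 12 higher and 4 lower (median -0.66, Txnl4a at 1.42, Snrnp200 at -1.81). The sensor pathway gave 1 of 12 higher and 4 lower (median -0.68; Isg15 at 1.36, Mavs at -1.22), and decapping factors 1 of 11 higher and 3 lower (median -0.62; Dcp2 at 1.63, Lsm14a at -1.22). Translation initiation gave 0 of 16 higher and 3 lower (median -0.40; Eif4ebp1 at 0.86, Eif4b at -2.18). Cofactors gave 1 of 17 higher and 3 lower (median -0.15; Magoh at 1.06, Gpkow at -1.86) and other helicases 0 of 8 higher and 3 lower (median -0.32; Dicer1 at 0.14, Snrnp200 again). The snoRNA particle list gave 1 of 10 higher and 1 lower (median 0.43; Nhp2 at 1.91, Dkc1 at -1.32).

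**Figure D4:**
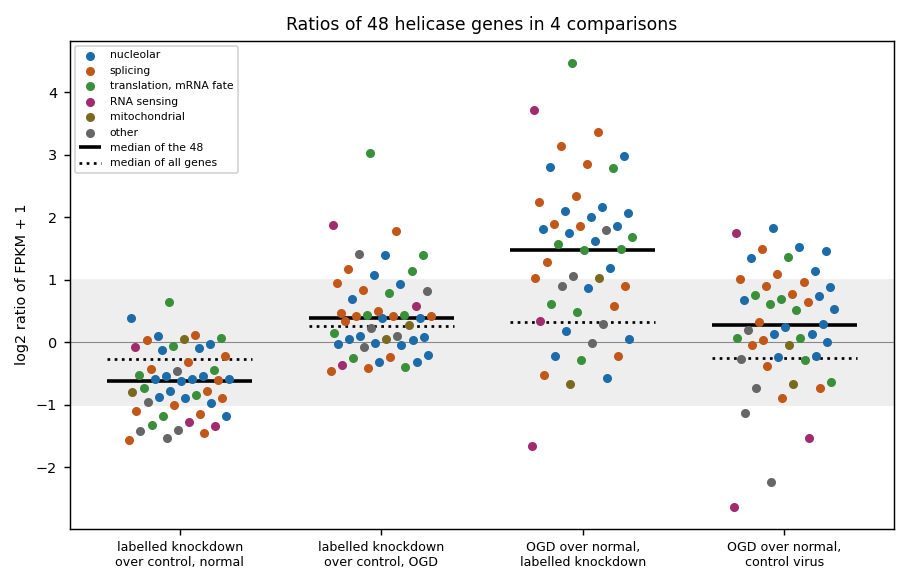
Log2 ratio of FPKM + 1 for 48 helicase genes in 4 comparisons of 2 libraries, each point a gene coloured by role, with the median of the 48 (solid line) and of all 12256 genes (dotted line). Grey marks ratios within 2-fold. The members' median is below that of all genes with the knockdown label in normal culture (-0.61 and -0.27) and above it in OGD over normal culture under both viruses.

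The difference between the 2 virus ratios, OGD minus normal culture, used all 4 libraries. It was at least 2-fold in the positive direction for 24 of 48 members, beside 37.4% of all genes, and 0 were as far in the negative direction, beside 12.7%. At 1.5-fold the counts were 36 and 2, beside 50.8% and 19.4% of all genes. With upper-quartile scaling they were 11 and 5 at 2-fold, beside 18.3% and 25.8% of all genes. With the length trend taken out they were 7 and 4, which is 14.6% and 8.33% of the members, beside 15.7% and 13.9% of all genes. The members' median was 0.99 and that of all genes 0.61. The highest values were those of Ddx3x at 3.86, Dhx40 at 2.93, Ddx5 at 2.72 and Ddx6 at 2.72, and the lowest those of Ddx39 at -0.89, Ddx49 at -0.71, Dhx34 at -0.34 and Ddx41, a splicing factor, at -0.26. Those of Dhx34 and Ddx41 took both signs over the settings.

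Over all genes the ratios of the knockdown label to control also followed transcript length. The 48 members had a median effective length of 2357 nt, against 1742 nt for all genes. Over all 12256 genes, which are not independent replicates, the log2 ratio of the knockdown label to control had a Spearman correlation with length of -0.43 in normal culture and 0.57 in OGD. Over the 48 members it was -0.09 and 0.41. For OGD over normal culture the correlation over all genes was 0.47 under the knockdown-labelled virus and -0.03 under the control virus, and over the 48 members 0.39 and 0.16. Genes of 1 library share its depth and length profile, so these are descriptions.

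**Figure D5:**
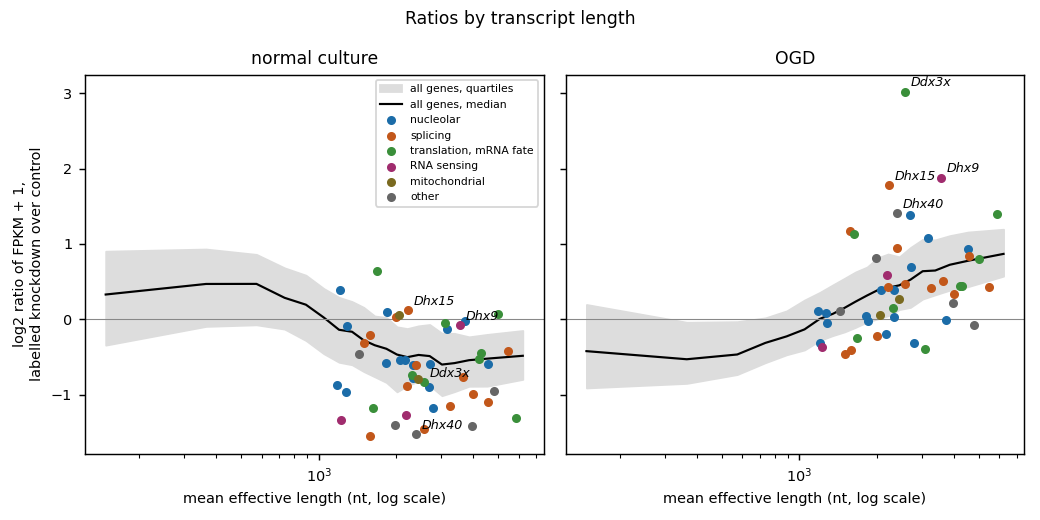
Log2 ratio of FPKM + 1, knockdown label over control, against mean effective length in nt on a log scale, in normal culture and in OGD. The line and band give the median and quartiles of all genes in 20 length bins and the points are the 48 helicase genes coloured by role. Ddx3x is the highest helicase point in OGD, at 3.02.

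The authors' deposited tables compare the knockdown-labelled with the control library in each culture condition and list genes with an unadjusted p-value of up to 0.05. In normal culture the authors' deposited table lists 4 members, Ddx11, Ddx58, Ddx6 and Ddx3y, with log2 fold changes of -1.33, -1.55, -1.36 and -1.60. In OGD the authors' deposited table lists 2, Ddx3x at 2.06 and Dhx15 at 1.64. On the scale of log2(FPKM + 1) used above, Ddx3x was at 3.02 and Dhx15 at 1.78. That scale divides by effective length, whereas the authors' deposited tables give levels as log2 CPM, which does not. The adjusted p-values given there lie between 0.209 and 0.747, so none of the 6 passed 0.05, in a comparison of 1 library with 1.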

How the data were processed

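RNA-seq of 4 HT22 libraries, 1 per group, was used as gene tables. The deposited expected counts, which are whole numbers in these files, and FPKM per gene were made by the authors, per the file headers. TopHat2 and build mm10 are named in the submitters' processing notes; no source used here gives the counting tool, versions or use of strand. The effective lengths were deposited beside them. The authors' deposited comparison tables give log2 fold changes and p-values of 1 library against 1, and 4 per-library columns in them were not used.

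Symbols came from a gene name table for 46488 of 47069 gene IDs. A log2 ratio is that of FPKM + 1 between 2 libraries, over genes averaging 1 FPKM or more, and a call is a 2-fold ratio, with no test. Intervals of FPKM folds are exact 95% Clopper-Pearson intervals on the counts of the 2 libraries, lengths and totals taken as known; they cover counting error only and compare libraries, not conditions. Scripts used Python 3.11.15, scipy 1.17.1, statsmodels 0.14.6 and edgeR 4.0.16 (TMM factors only) and were tested on simulated data. Members were grouped by role and 7 lists of partner genes were added by hand. The members and lists were chosen with earlier results of these data known. Named are Ddx3x, the 4 highest and 4 lowest ratios of each comparison, the most abundant member of each role, 5 paralog pairs and the extremes of each list; other members were named after their values were seen. Sequences are from GENCODE vM21 and RefSeq (GRCm38.p6). Alternatives were another pseudocount, filter, scaling, size of call, counts without length, and removal of a lowess trend on length. Depth was 23327743 to 27539845 counts.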

Additional observations from a re-analysis of the deposited data

Results flagged for a closer look

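In 4 members the ratio of the knockdown label to control was past 2-fold in opposite directions in the 2 culture conditions. Ddx5 had a log2 ratio of 1.17 in OGD and -1.56 in normal culture. Ddx6 had 1.40 in OGD and -1.31 in normal culture. Dhx40 had 1.41 in OGD and -1.52 in normal culture. Ddx19a had 1.14 in OGD and -1.18 in normal culture. The signs held under all of the other settings, but none of the 4 genes stayed past 2-fold in both conditions. The log2 ratio nearest to 0 was 0.58 in OGD and -0.94 in normal culture for Ddx5, and 0.55 and -0.81 for Ddx6. It was 0.63 in OGD and -0.75 in normal culture for Ddx19a, and 0.93 in OGD and -1.02 in normal culture for Dhx40. With 1 library per group the difference was not tested. Such opposite ratios were found for 4 of 48 members and for 542 of 12256 genes (4.42%). The median effective length of the 48 members was 2357 nt, against 1742 nt for all genes, and over all genes these ratios followed length in both conditions; the part of length in these 4 results was not tested.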

How the results depend on the processing

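No paired analysis was possible because each group has 1 library. For the same reason no replicate could be left out. Counts of members past the size called that differed by more than 1.5 times from those reported were these. After rescaling to equal sums, 23 were lower for the knockdown label in normal culture, beside 24.8% of all genes. With it 14 were higher in OGD, beside 25.8%, and 37 differences were positive, beside 53.9%. With TMM, 7 were lower in normal culture, beside 6.97% of all genes. TMM also gave 18 higher in OGD over normal culture under the control virus, beside 17.3%, and 2 negative differences, beside 18.7%. With median-of-ratios scaling, 6 were lower for the knockdown label in normal culture, beside 6.4% of all genes, and 5 higher in OGD, beside 9.73%. It gave 18 higher in OGD under the control virus, beside 17.5%, and 2 lower under the knockdown-labelled virus, beside 26.8%. Positive differences numbered 13, beside 21.9%, and negative ones 2, beside 20.8%. The shares of all genes for the settings that follow are given with each comparison above. With upper-quartile scaling, 1 was higher and 4 lower for the knockdown label in normal culture, 22 were higher and 2 lower in OGD under the control virus, and 11 differences were positive and 5 negative. With the length trend taken out, 3 were lower in normal culture, 3 were higher and 1 lower for the label in OGD, 18 were higher in OGD under the control virus, 4 lower under the knockdown-labelled virus, and 7 differences were positive and 4 negative. At 1.5-fold, 1 was higher and 27 lower for the label in normal culture, 16 higher in OGD, 20 higher and 9 lower in OGD under the control virus, 2 lower under the knockdown-labelled virus, and 2 differences were negative.

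Among ratios past 2-fold as reported, the sign turned with the length trend taken out for Dhx57 in OGD over normal culture under the knockdown-labelled virus (-0.19) and for the differences of Ddx10 (-0.038), Ddx42 (-0.033) and Dhx38 (-0.010); the cause was not tested. Counting ratios of every size, the log2 ratio took both signs over the settings for 28 of 48 members for the knockdown label in OGD. It did so for 15 in normal culture and for 22 for the difference. In OGD over normal culture the number was 11 under the knockdown-labelled virus and 12 under the control virus. Signs over the settings were not counted for all genes. With the trend taken out, the members' median minus that of all genes was -0.20 for the knockdown label in normal culture, -0.13 in OGD and 0.02 for the difference, against 0.63 in OGD over normal culture under the control virus and 0.62 under the knockdown-labelled virus. The median over all genes moved with scaling by more than 0.1, for instance in OGD over normal culture under the control virus to -0.34 with equal sums and 0.30 with the upper quartile.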
